A study of Mus with 6 samples.

Results

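The Dlk1-Dio3 domain of mouse chromosome 12 is an imprinted region, in which protein-coding genes are read from the copy inherited from the father and long non-coding RNAs from the copy inherited from the mother. Meg3, Rian and Mirg are the maternally expressed RNAs: Meg3 is a long non-coding RNA abundant in neurons, Rian is a host of small nucleolar RNAs, and Mirg is a host of miRNAs. The authors' deposited table of named RNAs was searched for these 3 symbols. Of the 3, 2 were found, Meg3 and Mirg, among 2282 names. Rian had no row under its symbol or its RefSeq synonyms and was not analysed here.

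The tissue was the substantia nigra pars compacta of the right side, a part of the midbrain whose dopaminergic neurons are lost in Parkinson's disease, from mice that overexpress human α-synuclein with the A53T substitution. In 1 group of 3 samples, mice were given AVE0991, a non-peptide agonist of the angiotensin-(1-7) receptor Mas, at 10 mg/kg by intraperitoneal injection each day for 30 days. In the model group of 3 samples, mice of the same genotype were given 0.9% saline in the same way. Every sample therefore carries the α-synuclein transgene, and no mice without it were compared. The sources used here do not give the promoter that drives the transgene, the age of the mice or whether the samples came from separate animals. P-values therefore measure spread between samples that may be technical.

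The question was whether the maternally expressed RNAs of the domain differ between AVE0991 and model mice. Library totals in the count table by NONCODE identifier ran from 37036986 to 42379095 in the AVE0991 group and from 43991913 to 52029003 in the model group. The named table gives a mean per group and a test per name, from which the whole counts in each library were worked out for 2246 of 2247 names with a value. The 3 libraries of each group are called a, b and c by rising library factor and carry no replicate number; values of a group stand in that order. Normalized counts are those counts divided by the library factor, which ran from 0.921 to 0.992 in the AVE0991 group and from 1.08 to 1.18 in the model group. No marker listed here for dopaminergic neurons, GABA neurons or astrocytes was among the names, so those lists could not check the labelled tissue. Names outside the lists, such as Dlx6os1, were not used for such a check. Of 38 marker genes in 7 cell type lists, 5 were present and no list had 3.

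Neither Meg3 nor Mirg differed between the groups beyond the spread between libraries. Meg3, a nuclear long non-coding RNA that in mouse is linked to repression of Dlk1 on the maternal chromosome, had 278279, 122489.5 and 253723 normalized counts in the AVE0991 group, against 252377, 193058 and 195946 in the model group. The AVE0991 values held both the highest and the lowest of the 6, so the model range lay inside the AVE0991 range. The mean was 218164 ± 83761 in the AVE0991 group and 213794 ± 33445 in the model group (SD over 3 libraries each). The log2 fold change, AVE0991 over model, was 0.09 ± 0.29 (SE), with a 95% interval from -0.58 to 0.75, and did not pass the test (adjusted p = 0.871, by quasi-likelihood in edgeR, Benjamini-Hochberg over all 1871 names tested). On the linear scale that interval runs from 0.670-fold to 1.69-fold, so these data do not show that Meg3 was alike in the groups. In bulk tissue, a lower level of an RNA in each cell and fewer cells that make it cannot be told apart.

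In Meg3, 1 library stood below the other 5. AVE0991 library b held 0.567 times the mean of all 6 libraries, and AVE0991 libraries a and c held 1.29 and 1.17 times that mean. The highest AVE0991 library was 2.27 times the lowest, against 1.31 times in the model group (1.37 times with the second set of model counts described next). The coefficient of variation of Meg3 was 38.4% in the AVE0991 group, higher than that of 95.9% of the 653 names with a mean count of at least 500. In the model group it was 15.6%, higher than that of 57.6% of those names. The sign of the Meg3 difference turned with the libraries and the scaling. Without AVE0991 library b the log2 fold change was 0.38 (adjusted p = 0.231, edgeR), and it was -0.16 without library a (adjusted p = 0.788, edgeR) and -0.01 without library c (adjusted p = 0.983, edgeR). With all 6 libraries and cyclic loess scaling in limma it was -0.18 (adjusted p = 0.668).

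Meg3 took 4.83% to 10.6% of the recovered named counts in the AVE0991 libraries and 7.45% to 7.74% in the model libraries, the last range holding only for the set of counts used. These shares leave out 4930509G22Rik, whose counts were not solved. In 1 candidate set it has 627022, 2207556 and 2207969 counts in the AVE0991 libraries and 3645, 1777349 and 5780703 in the model libraries. Recovered totals ran from 2414830 to 2676376 in the AVE0991 group and from 2887526 to 3665767 in the model group. The total of model library a included 720081 counts of 4930546C10Rik, against 27510 and 16036 in model libraries b and c. For Meg3 the recovery of counts left a choice among 84 sets, of which the closest was used. A second set of model counts missed by 1.93 units of the 10th significant digit of a normalized count, against 0.577 for the set used. The 135 abundant names with a single set missed by up to 1.73. The second set would give 180074, 214349 and 246958 normalized counts in the model group, which are 5.43%, 8.23% and 9.56% of the recovered named counts. The set used and the second set have the same AVE0991 counts, and the group means and standard deviations are the same in both. With the second set the log2 fold change was again 0.09 (adjusted p = 0.875, edgeR). The order of the model libraries and their range of shares do rest on the choice.

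Mirg, the RNA at the distal end of the miRNA cluster, had 3649.7, 3928 and 3479 normalized counts in the AVE0991 group, against 2899, 4026 and 4238 in the model group. Here the model group was the more variable, with library a the lowest of all 6, and the AVE0991 values lay inside the model range. The mean was 3686 ± 227 in the AVE0991 group and 3721 ± 719.7 in the model group (SD over 3 libraries each). The log2 fold change was 0.04 ± 0.17 (SE), with a 95% interval from -0.35 to 0.44, and did not pass (adjusted p = 0.901, edgeR with Benjamini-Hochberg adjustment). A change of Mirg to below 0.782-fold or above 1.35-fold lies outside that interval. The coefficient of variation was 6.15% in the AVE0991 group and 19.3% in the model group, against medians of 11.8% and 13.6% over the 653 abundant names.

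In the authors' deposited table, the difference of Meg3 means was 4370 normalized counts, with a 95% interval from -175720.2 to 184461, or from -82.2% to 86.3% of the model mean. For Mirg the authors' deposited table gives a difference of -35.3, with an interval from -1644 to 1573, or from -44.2% to 42.3% of the model mean. The authors' deposited table lists unadjusted p-values of 0.939 for Meg3 and 0.942 for Mirg. The sign of the small difference of Mirg depends on the scaling, since it is below 0 with the library factors behind that table and above 0 with TMM scaling in edgeR.

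**Figure D1:**
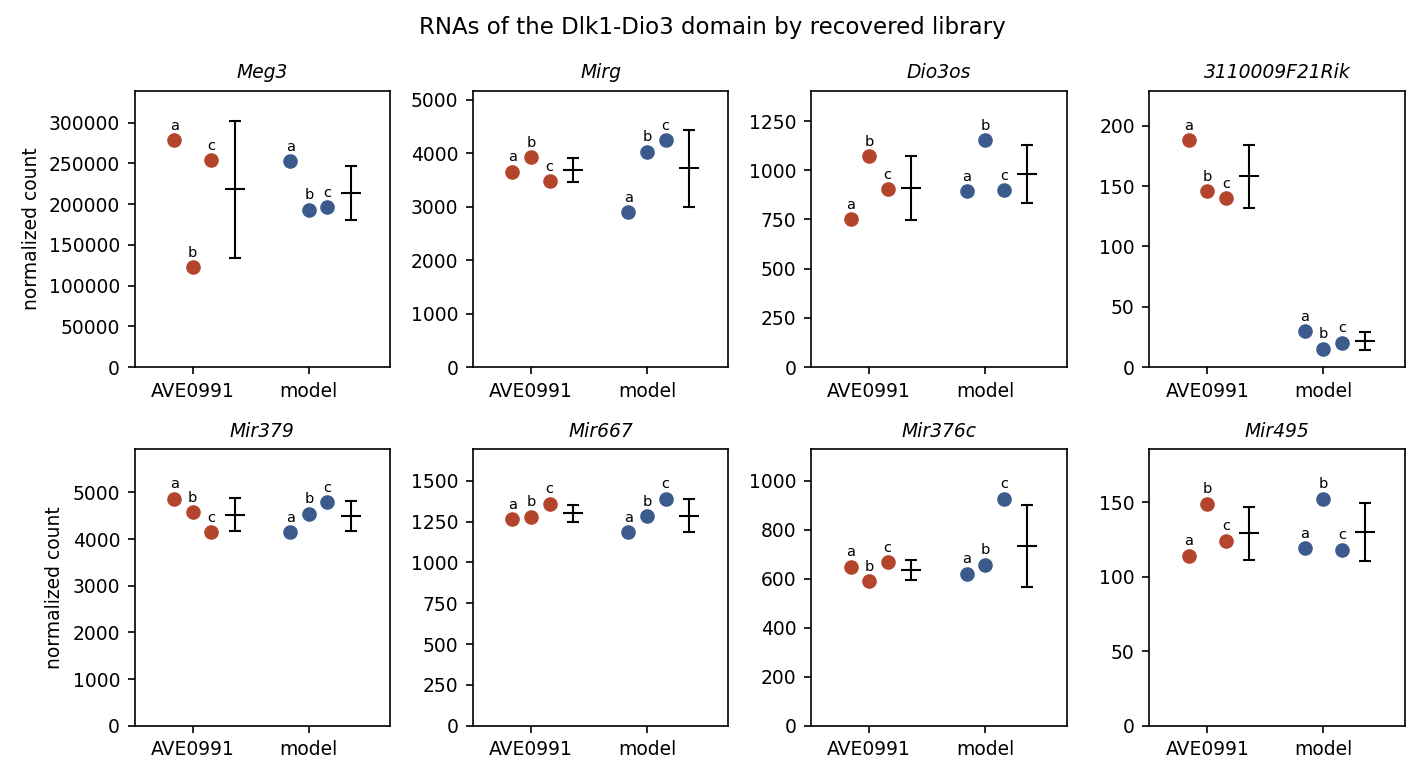
Normalized counts (vertical axes, from 0) of the 8 domain RNAs in the 3 AVE0991 and the 3 model libraries, with 1 point per library marked a, b or c and the mean ± SD beside each group. Meg3 is lowest in AVE0991 library b (122489.5), Mirg is lowest in model library a (2899), and only 3110009F21Rik has groups that do not overlap.

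Meg3 and Mirg were then set against each other within each library. Mirg counts per 100 Meg3 counts, a ratio within a library that no scaling can move, were 1.31, 3.21 and 1.37 in the AVE0991 group, against 1.15, 2.09 and 2.16 in the model group. AVE0991 library b, the lowest in Meg3, was the highest of its group in Mirg, and model library a, the highest of its group in Meg3 with the set of counts used, was the lowest in Mirg. The ratio averaged 1.96 ± 1.08 in the AVE0991 group and 1.80 ± 0.565 in the model group (SD over 3 libraries each). The difference of 0.164 was within that spread (exact permutation test over libraries, two-sided, p = 0.8; 3 against 3 cannot go below 0.1). With the second set of Meg3 counts the model ratios would be 1.61, 1.88 and 1.72, and the difference 0.228 (exact permutation test, two-sided, p = 1).

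**Figure D2:**
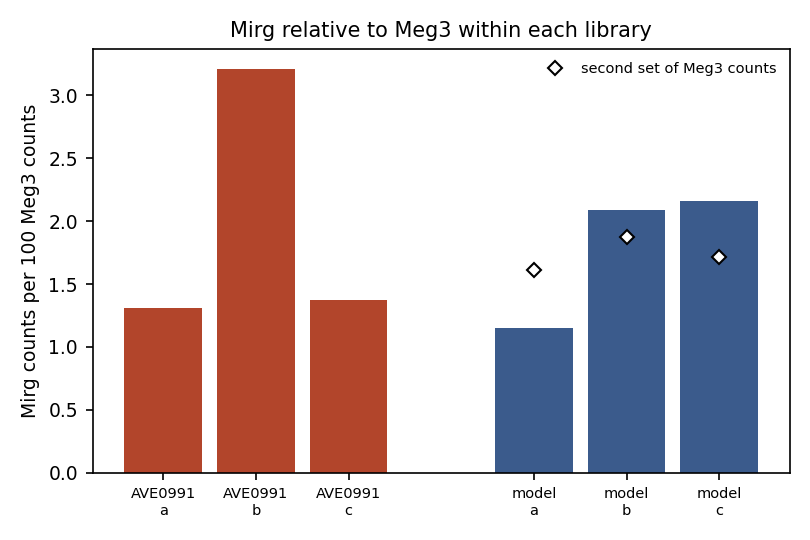
Mirg counts per 100 Meg3 counts in each library (bars, from 0), AVE0991 libraries on the left and model libraries on the right, with diamonds for the second set of Meg3 counts in the model group. The bar of AVE0991 library b (3.21) stands above the other 5, which run from 1.15 to 2.16.

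The rest of the domain was taken by position. RefSeq (GRCm38.p6) lists 104 genes that lie wholly in the stretch from Begain, at the proximal end, to Dio3os, at the distal end. Of these, 60 are miRNAs, 19 small nucleolar RNAs, 17 long non-coding RNAs, 5 pseudogenes and 3 protein-coding genes. The named table holds 8 of the 104, namely 4 of the long non-coding RNAs (Meg3, Mirg, 3110009F21Rik and Dio3os) and 4 of the miRNA loci (Mir379, Mir495, Mir667 and Mir376c). All 8 passed the filter on low counts. The 3 protein-coding genes of this stretch (Begain, Dlk1 and Rtl1) and its small nucleolar RNAs were not analysed here. Dio3, which gives the domain part of its name, is not among the 104, since the stretch was cut at the end of Dio3os. No coordinates are given because the files use mm9, another build than the annotation.

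Of the 8, 1 rose, none fell and 7 did not pass. Over all 1871 names tested, 15.6% passed in the same edgeR test at an adjusted p under 0.05, 7.48% higher and 8.12% lower with AVE0991. With all 6 libraries the 1 of 8 (12.5%) is near that share. The share over all names depends on the libraries: it was 4.35% without model library b, 5.02% without model library c, 21.3% without model library a, and 6.86% to 7.32% without 1 of the AVE0991 libraries, while 1 of the 8 passed each time. The median log2 fold change of the 8 was 0.06, against -0.01 over all names. The median size of the log2 fold change, regardless of sign, was 0.07 for the 8 and 0.41 over all names. Of all names, 653 had a mean count of at least 500, among them all of the 8 but 3110009F21Rik and Mir495. No comparison with names of like level was made. The 7 that did not pass had log2 fold changes of at most 0.16 in size, and 27.9% of all names were within 0.2. These are descriptions of a short list chosen by locus, with no test of the list.

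The RNA that rose was 3110009F21Rik, a long non-coding RNA that RefSeq places between Mirg and Dio3os and for which the sources used here give no function. It had 188, 146 and 140.1 normalized counts in the AVE0991 group, against 29.6, 15.2 and 20.4 in the model group. Every AVE0991 library was above every model library, and the lowest AVE0991 library was well above the highest of the model group. Groups that did not overlap were found for 39% of all names tested. The log2 fold change was 2.92 ± 0.34 (SE), a 7.54-fold rise with a 95% interval from 4.42-fold to 12.9-fold (adjusted p = 0.00167, edgeR with Benjamini-Hochberg adjustment). Of the 1871 names, 9 had a larger log2 fold change and 20 a smaller p. The call held without each library in turn, with adjusted p from 0.000951 to 0.0137 (edgeR), and was lost only when the p-values of the authors' deposited table were adjusted over its names (unadjusted p = 0.00814, adjusted p = 0.222).

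**Figure D3:**
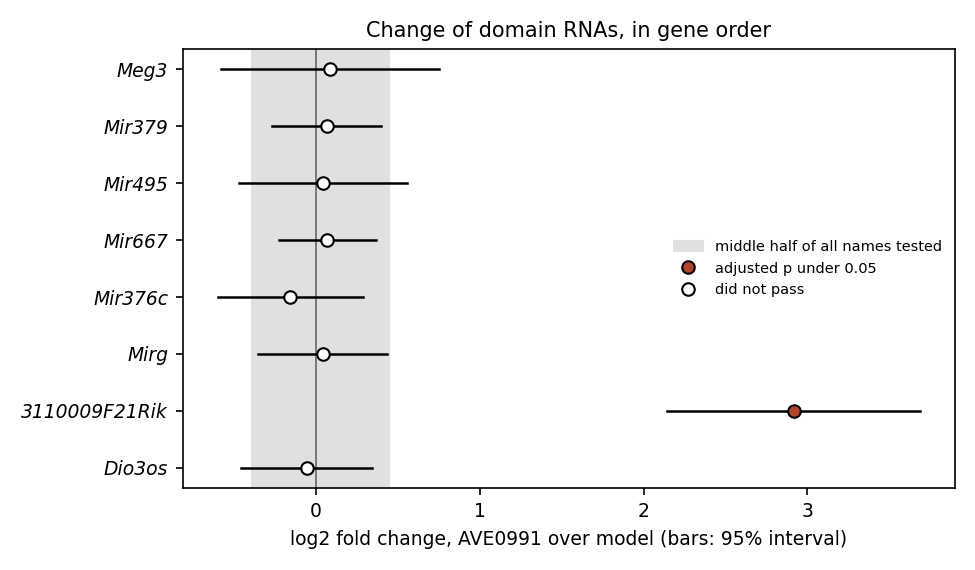
Log2 fold change, AVE0991 over model, of the 8 domain RNAs in gene order from proximal (top) to distal (bottom), with 95% intervals as bars, filled where the adjusted p was under 0.05. Grey marks the 25th to 75th percentile of all 1871 names, -0.39 to 0.45, and every point but that of 3110009F21Rik (2.92) lies inside it.

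Dio3os is the RNA antisense to Dio3, the gene of the deiodinase that inactivates thyroid hormone. It had 750.3, 1072 and 905 normalized counts in the AVE0991 group, against 893, 1152 and 898 in the model group. The groups overlapped, with library b the highest of each group and library a of the AVE0991 group the lowest of all 6. The log2 fold change was -0.06 ± 0.18 (SE), with a 95% interval from -0.46 to 0.35 (adjusted p = 0.862, edgeR). In RefSeq the only gene that overlaps Dio3os is Mir1247, so Dio3 itself does not overlap it. The sources used here do not give the strand setting of the counting, so reads from opposite strands of an overlap cannot be told apart.

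The 4 miRNA loci all lie between the starts of Rian and Mirg, where RefSeq lists 33 miRNAs. Reads here come from total RNA and fall on the locus, so they are no measure of a mature miRNA. Mir379, the first miRNA of the large cluster, a cluster known from rat neurons to be regulated by activity, had 4862, 4572 and 4146 normalized counts in the AVE0991 group, against 4148, 4548 and 4792 in the model group. Both groups spanned nearly the same range. Its log2 fold change was 0.07 ± 0.15 (SE), with an interval from -0.27 to 0.40 (adjusted p = 0.806, edgeR).

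Mir667 had the smallest spread of the 8 in the AVE0991 group. It had 1264, 1279 and 1359.6 normalized counts in the AVE0991 group, against 1186, 1283 and 1389 in the model group. The AVE0991 values lay inside the model range, and the coefficients of variation were 3.95% in the AVE0991 group and 7.90% in the model group. The log2 fold change was 0.07 ± 0.13 (SE), with an interval from -0.23 to 0.37 (adjusted p = 0.756, edgeR).

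Mir376c, of a family of miRNAs in the middle of the cluster, had 649, 589.7 and 668 normalized counts in the AVE0991 group, against 620.1, 658 and 926 in the model group. The high value of model library c set the mean apart, and without that library the sign turned (log2 fold change 0.06). With all 6 libraries it was -0.16 ± 0.19 (SE), with an interval from -0.60 to 0.29 (adjusted p = 0.638, edgeR). Mir495, the scarcest of the 4, had 114, 149 and 124 normalized counts in the AVE0991 group, against 119, 152 and 118 in the model group. Library b was the highest in both groups, which is no pairing since the letters carry none. Its log2 fold change was 0.05 ± 0.22 (SE), with an interval from -0.47 to 0.56 (adjusted p = 0.915, edgeR), and its sign was below 0 with the recovered library factors as scaling (-0.01).

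Mir379 and Mirg, at the ends of the measured miRNA stretch, were also set against each other within each library. Mir379 counts per Mirg count were 1.33, 1.16 and 1.19 in the AVE0991 group, against 1.43, 1.13 and 1.13 in the model group. Library a was the highest in each group. The mean was 1.23 ± 0.0901 in the AVE0991 group and 1.23 ± 0.174 in the model group (SD over 3 libraries each; exact permutation test, two-sided, p = 1).

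In RefSeq the span of Meg3 overlaps Mir1906-1, Mir770 and the protein-coding gene Rtl1, that of Mirg overlaps 10 miRNAs, and that of Dio3os overlaps Mir1247. Mir1247 runs past the end of Dio3os and is therefore not among the 104 genes. No gene overlaps 3110009F21Rik, Mir379, Mir495, Mir667 or Mir376c there. The sources used here do not say how the authors' counting treated reads in overlaps.

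**Figure D4:**
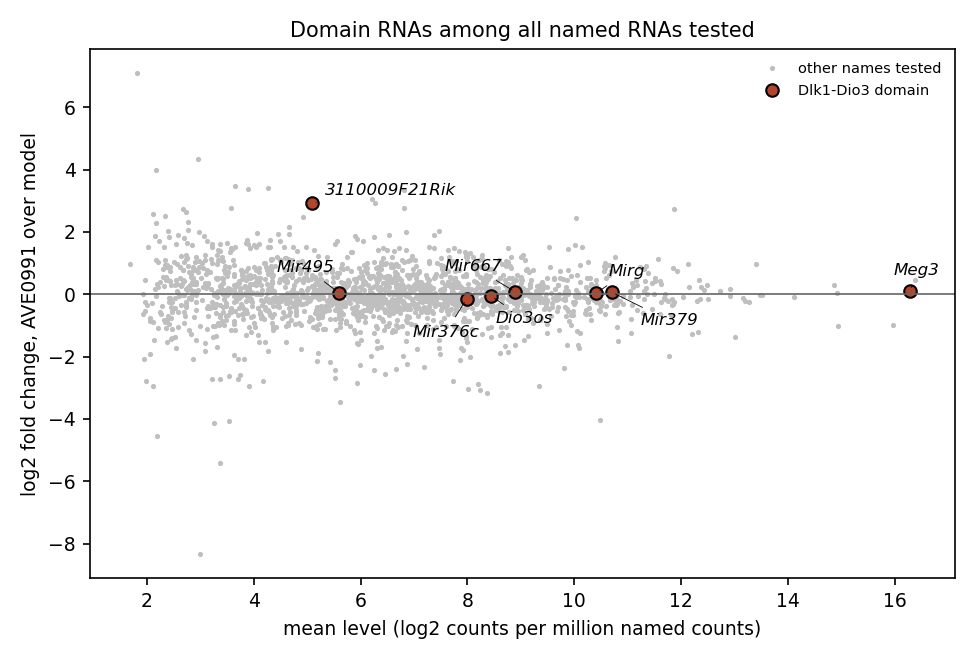
Log2 fold change, AVE0991 over model (vertical axis), against mean level in log2 CPM of the named counts (horizontal axis) for the 1871 names tested, with the 8 domain RNAs marked. Meg3, Mirg, Dio3os and the 4 miRNA loci lie within 0.16 of 0, and 3110009F21Rik lies at 2.92.

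Other imprinted RNAs did not share one pattern. Of 7 tested outside the domain, 3 fell, none rose and 4 did not pass, where 8.12% of all names passed lower and 7.48% higher. The median log2 fold change of the 7 was -0.91, against -0.01 over all names, and is the value of Nctc1, which did not pass (adjusted p = 0.108, edgeR). Kcnq1ot1, the antisense RNA of the Kcnq1 imprinted domain, had 81554, 85447 and 84735 normalized counts in the AVE0991 group, against 93269.9, 78049 and 83338 in the model group. Like Meg3 it did not pass (log2 fold change 0.04 ± 0.13, SE, adjusted p = 0.882, edgeR). Airn, the antisense RNA of the Igf2r domain, fell, with 3747, 4419 and 3163 normalized counts in the AVE0991 group, against 11474, 16692 and 18486 in the model group (log2 fold change -1.99 ± 0.22, SE, adjusted p = 0.00160, edgeR). Peg13, a brain RNA of an imprinted locus on another chromosome, did not pass. H19 and Igf2os were the other RNAs that fell. Whether the domain differs from these loci was not tested.

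Among cell type RNAs in the table, Miat, a neuronal long non-coding RNA, had 40270.1, 35987 and 38336 normalized counts in the AVE0991 group, against 28652, 15832 and 16686 in the model group. Miat rose by 0.96 ± 0.24 on the log2 scale (SE, adjusted p = 0.0318, edgeR). Its groups did not overlap, as was found for 39% of all names tested. The oligodendrocyte RNA 9630013A20Rik had 1314, 1632 and 1769 normalized counts in AVE0991 libraries, against 1275, 1069 and 864 in model libraries, and did not pass (log2 fold change 0.61 ± 0.18, SE, adjusted p = 0.0533, edgeR). The groups did not overlap in this RNA either. The other neuronal RNA present, Peg13, did not move with Miat. It had 42130.2, 46975 and 47994 normalized counts in AVE0991 libraries, against 52857, 50935 and 46239 in model libraries, and the groups overlapped (log2 fold change -0.08 ± 0.13, SE, adjusted p = 0.739, edgeR). Of the remaining markers, the scarce Mir155hg of myeloid cells did not pass, and its groups overlapped (log2 fold change -0.80 ± 0.41, SE, adjusted p = 0.234, edgeR). H19 of mesenchyme fell by 1.72 on the log2 scale (adjusted p = 0.0111, edgeR). The part of cell composition in the values of Meg3, Mirg and 3110009F21Rik was not tested.

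Names whose profile was most like that of each RNA were ranked by Pearson's r of log2 CPM (scaled counts) over the 6 libraries. The ranking covered 230 tested names with a mean count of at least 500. Clone symbols of the Rik, Gm, LOC, AI, AK, BC, A and B series were left out, while others such as AU stayed in. For Meg3 the closest names were Mexis (r = 0.92), Mir8092 (r = 0.90) and Tspy-ps (r = 0.79), and like Meg3 all 3 were lowest in AVE0991 library b. With the second set of Meg3 counts they were Mir24-1 (r = 0.92), Mir8092 (r = 0.85) and Neat1 (r = 0.77), and Mexis had r = 0.56, so only Mir8092 was among the 3 with both sets. Mir8092, for one, had 666, 356 and 744 normalized counts in the AVE0991 group, against 673, 677 and 618 in the model group. For Mirg they were Mir7655 (r = 0.79), Snora43 (r = 0.78) and AU040972 (r = 0.77). None of the 6 names found with the set of counts used lies in the domain, and none passed the test between the groups. Between Meg3 and Mirg themselves r was -0.45, and 0.12 with the second set. These values describe 6 libraries that share their scaling.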

How the data were processed

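Total RNA from 3 AVE0991 and 3 model samples was sequenced. Per the submitters' processing notes, the tools include STAR 2.7.7a and DESeq2 1.10.1, and the build is mm9. The sources used here do not give the counting program, annotation or strand setting. Read counts by NONCODE identifier, as deposited, served for depth alone, since no file pairs its identifiers with names. The authors' deposited table of named RNAs holds, per name, the mean of each group as a signal (counts divided by a library factor), their difference, a test statistic and degrees of freedom as a score, a p-value and a fold change on the log2 scale.

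The means, statistic and degrees of freedom give the mean and variance of each group. The whole counts that meet them in each library were solved for, at a relative tolerance of 1e-09. The same step was run on data simulated from the recovered counts and library factors, and its outcome is not given here. The 35 names at 0 throughout and 1 name with several solutions were not tested. For 5 abundant names, Meg3 among them, the closest solution was taken. The libraries were not tied to replicate numbers. The design foresaw counts, and these are counts recovered from the signal table.

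The recovered counts were tested with edgeR 4.0.16 (R 4.3.3; quasi-likelihood test, TMM scaling, edgeR's default filter on low counts, Benjamini-Hochberg adjustment over all names tested, threshold 0.05). DESeq2 1.42.0 and limma 3.58.1 were alternatives. Likeness used log2 CPM with a prior count of 2. Intervals are at 95% and cover the spread between libraries. Named RNAs were the members, every RNA of the domain in the table, the 3 names most like each member, and fixed lists of imprinted and marker RNAs. The members and lists were chosen with earlier results of these data known.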

Additional observations from a re-analysis of the deposited data

How the results depend on the processing

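Besides leaving out each library, 12 other settings were run, 2 of them chosen after seeing the data (the recovered library factors as scaling, and the second set of Meg3 counts). Neither Meg3 nor Mirg passed under any, with adjusted p from 0.231 to 0.999 for Meg3 and from 0.606 to 0.991 for Mirg. With the authors' p-values adjusted over their names, no named RNA and no RNA of the domain passed (0 of each; 576 names had an unadjusted p under 0.05 in edgeR, and DESeq2 called 414). Leaving out 1 library gave 83 to 411 named RNAs, and 1 to 1 in the domain. Small differences changed sign, and the cause was not tested. The log2 fold change of Meg3 was -0.18 with cyclic loess, that of Mirg -0.0138 both in the authors' deposited table and with the recovered library factors, and that of Mir495 -0.0086 in the authors' deposited table and -0.0083 with those factors. Without 1 library in turn the range was -0.16 to 0.38 for Meg3, -0.11 to 0.16 for Mirg, -0.0172 to 0.14 for Mir379, -0.0594 to 0.15 for Mir495, -0.27 to 0.0569 for Mir376c, -0.18 to 0.0531 for Dio3os and 2.697 to 3.19 for 3110009F21Rik. The difference in Mirg per 100 Meg3 counts ran from -0.458 to 0.490. No paired analysis was possible because the recovered libraries carry no replicate number. With 3 libraries a group, the 95% interval of Meg3 still spans 0.670-fold to 1.69-fold.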
